A study of Mus musculus with 6 samples.

Results

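Contractile genes of myofibroblasts and smooth muscle were followed in Desmin-positive, CD45-negative areas of mouse cholangiocarcinoma. The genes were Acta2, Tagln, Myl9, Tpm1, Tpm2, Cnn1, Actg2, Myh11, Mylk and Des, taken by symbol from the deposited table. Of these 10 genes, 9 were among the 13264 targets of the table, and Cnn1 (calponin 1) was not analysed here. No contractile gene passed the test between the genotypes after scaling, but the genes did not all lean the same way: Acta2, Myl9, Tpm1 and Actg2 read lower on average in the floxed regions, while Tagln and Mylk read higher.

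The contractile apparatus of smooth muscle is built from thin filaments of actin, tropomyosin and calponin, which slide along myosin once myosin light chain kinase has phosphorylated the light chain. Hepatic stellate cells and fibroblasts take up parts of this programme when they become myofibroblasts, and alpha smooth muscle actin, the product of Acta2, is the usual marker of that state in liver and in tumour stroma. Serum response factor (SRF) with its myocardin-family partners drives many of these genes through a DNA element called the CArG box.

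The tumours were of the SB murine cholangiocarcinoma line. Regions labelled as control, called control regions here, came from Cd274+/+Col1A1Cre mice, and those called floxed regions from Cd274F/FCol1A1Cre mice, so both groups carried a Cre driven by the Col1a1 promoter and only the latter mice carried floxed alleles of Cd274, the gene of PD-L1. Each group held 3 regions on the same slide, areas 14 to 16 and areas 11 to 13, so genotype and block of areas cannot be told apart. Neither age, treatment nor the animal behind each region is given by the labels. Regions may therefore share an animal, and the p-values, which measure only the spread between regions, may be too small. Desmin protein defined the collected cells, so the Des transcript is part of how the areas were chosen and is no finding between them.

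Values are signals of probe-attached sequencing tags, scaled so that every region had the same upper quartile (Q3) over all targets. The negative-probe entry, called the negative probe here, stands for sequences that bind no mouse transcript and gives the background. It read 4.76 to 5.06 in the control and 4.77 to 6.97 in the floxed regions on this scale. The entry is taken as a background level and not as the signal of a single probe. Summed signal before scaling was 720786 to 1024180 in the control and 223253 to 393615 in the floxed regions. Floxed region 2 had the lowest sum, the largest scaling factor, at 2.20, and the highest scaled negative probe. Nearly all values of a region were whole multiples of a step, so that, taking a step as 1 tag, 26 to 40 tags stood behind the median target in the control and 11 to 19 in the floxed regions. Cd274 itself read 12.7 ± 1.91 and 19.2 ± 9.17 (SD, n = 3 each), which does not check the labels. Differences are floxed minus control on the log2(value + 1) scale, with the standard error (SE) and the Benjamini-Hochberg adjusted p of limma over all targets. In a mask of many cells, fewer cells of a type and less RNA per cell cannot be told apart. Signals of different genes come from different probes and are not set against each other as levels. Actin genes are near-identical in sequence, and cross-binding between probes of Acta2, Actg2, Actg1 and Actb was not tested. Ptprc, the gene of CD45, which the mask excluded, read 26.1 in the control and 47.8 in the floxed regions on average.

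Of the 9 contractile genes, 0 were called higher and 0 lower at an adjusted p under 0.05 (limma), against 0.588% of all targets called higher and 0.113% called lower. At an unadjusted p under 0.05, 2 of the 9 were lower, Acta2 and Myl9, where 5.98% of all targets were. Their median log2 difference was -0.22, beside 0.02 over all targets. The floxed regions lay wholly below the control ones for 2 genes, Myl9 and Tpm1, and wholly above them for 0, where the shares of all targets were 9.08% and 10.1%.

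**Figure D1:**
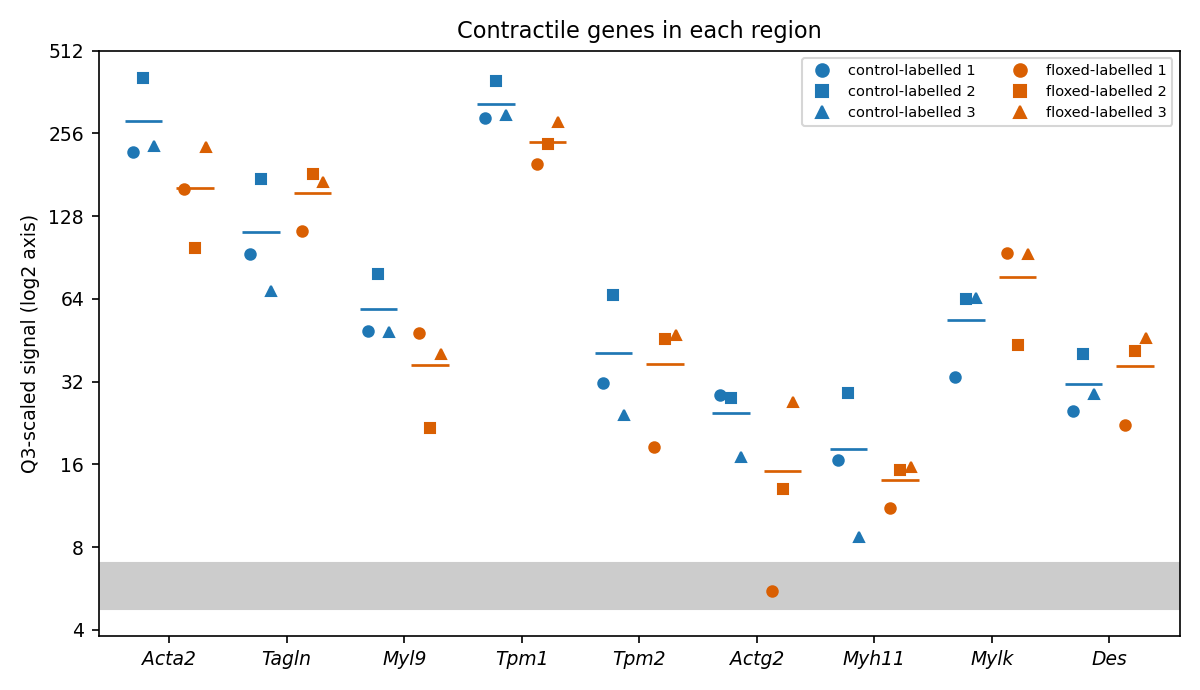
Q3-scaled signal (log2 axis) of 9 contractile genes in 6 regions, with a point per region and a bar at each group's mean. The grey band is the range of the negative probe. Acta2 spans 98.0 to 406, and Actg2 falls to 5.55, inside the band, in floxed region 1.

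Acta2 read 219, 406 and 229.8 in control regions 1 to 3, against 161, 98.0 and 229 in floxed regions 1 to 3. Control region 2 was the highest and floxed region 2 the lowest, and the groups overlapped only by the top floxed region. The log2 difference was -0.83 ± 0.34 (SE), with a 95% interval of -1.56 to -0.10 and an adjusted p of 0.332. The interval, like those below, is not adjusted for the number of targets. Relative to the negative probe, Acta2 stood at 58.4 times its level in the control and 30.1 times in the floxed regions. The size of the difference depended on single regions: it was -0.54 without control region 2 and -0.51 without floxed region 2.

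Myl9, the regulatory myosin light chain of smooth muscle, read 49.1, 79.2 and 48.3 in control regions 1 to 3, against 48.1, 21.8 and 40.4 in floxed regions 1 to 3. Its highest and lowest regions were those of Acta2. The groups did not overlap, though the nearest values of the groups, 48.3 and 48.1, were almost equal. The log2 difference was -0.70 ± 0.31 (SE; 95% interval -1.38 to -0.02; adjusted p 0.378). It was -0.37 without floxed region 2. In that region Myl9 rested on 10 steps, at 3.12 times the negative probe. Over the 6 regions the ratio of Acta2 to Myl9 varied by 1.69-fold from the lowest to the highest, the narrowest range of any pair of the 9 genes.

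The promoters of Acta2 and Myl9, the pair with the narrowest range of ratios, are shown with that of Mylk. These genes were picked after their values were seen, and whether a CArG box bears on the signals was not tested. The sequences are RefSeq promoters of build GRCm38.p6, 250 bases before to 50 after the annotated start, which 6 of the 9 measured genes had. Tagln, Actg2 and Myh11 had none, so their boxes are not known here. Capitals mark a CArG box, exact or with 1 mismatch in its A/T core (a motif that reads the same on both strands).
Acta2, chr19:34255324-34255623, minus strand: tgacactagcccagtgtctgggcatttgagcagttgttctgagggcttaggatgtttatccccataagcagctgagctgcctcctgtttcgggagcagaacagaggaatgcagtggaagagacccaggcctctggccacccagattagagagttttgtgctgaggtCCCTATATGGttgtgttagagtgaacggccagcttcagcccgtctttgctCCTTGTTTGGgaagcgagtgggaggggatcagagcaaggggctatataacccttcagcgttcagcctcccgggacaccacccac
Myl9, chr2:156775214-156775513, plus strand: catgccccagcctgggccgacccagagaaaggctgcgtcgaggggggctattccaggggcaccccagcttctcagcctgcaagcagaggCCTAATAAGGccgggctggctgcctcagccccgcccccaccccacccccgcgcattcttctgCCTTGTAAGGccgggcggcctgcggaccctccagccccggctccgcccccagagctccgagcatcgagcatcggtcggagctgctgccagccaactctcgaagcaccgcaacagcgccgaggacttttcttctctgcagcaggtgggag
Mylk, chr16:34784700-34784999, plus strand: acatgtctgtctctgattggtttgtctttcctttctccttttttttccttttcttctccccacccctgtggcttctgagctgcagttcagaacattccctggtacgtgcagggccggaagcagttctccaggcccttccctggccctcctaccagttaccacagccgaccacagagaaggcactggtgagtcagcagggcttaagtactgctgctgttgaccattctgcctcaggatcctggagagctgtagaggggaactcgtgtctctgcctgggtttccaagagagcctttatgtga
The Acta2 promoter held 2 boxes with 1 mismatch, which began 84 and 34 bases before the start. The Myl9 promoter held an exact box that began 161 bases before the start and a box with 1 mismatch at 99 bases. In the Tpm1, Tpm2, Mylk and Des windows no box of either kind was found, which says only that these letters are not in those 300 bases. Of these, Tpm1 and Tpm2 had negative differences, as Acta2 and Myl9 did, and Mylk and Des positive ones. Of 32851 mouse promoters of this length, 1.63% held an exact box and 9.98% an exact box or a box with 1 mismatch. The letters CATTCC, on either strand, which the TEAD factors bind, were found in the Acta2, Tpm1 and Mylk windows and in 14.7% of all promoters. A match is a description of the sequence and was not tested as a binding site.

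Tagln, which encodes the actin-binding protein transgelin (SM22-alpha), read 92.9, 174 and 68.4 in control regions 1 to 3, against 113, 183 and 171 in floxed regions 1 to 3. Control region 2 lay among the floxed values, and the other control regions lay below them all. The log2 difference was 0.55 ± 0.33 (SE; 95% interval -0.16 to 1.27; adjusted p 0.510), and it was 0.92 without control region 2 and 0.26 without control region 3. Floxed region 2, the lowest for Acta2 and Myl9, was the highest for Tagln.

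Mylk, the gene of myosin light chain kinase, which phosphorylates the light chain and so starts contraction, read 33.2, 63.8 and 64.3 in control regions 1 to 3, against 94.4, 43.5 and 93.1 in floxed regions 1 to 3. Floxed regions 1 and 3 exceeded every control region, and floxed region 2 lay among them. The log2 difference was 0.49 ± 0.34 (SE; 95% interval -0.25 to 1.23; adjusted p 0.575). It was 0.18 without control region 1 and 0.85 without floxed region 2.

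The tropomyosins, which wind along the actin filament and control access of myosin, are given side by side. Tpm1 read 292, 396 and 298 in control regions 1 to 3, against 198, 235 and 283 in floxed regions 1 to 3. The groups did not overlap, and Tpm1 had the narrowest range of the 9 genes within the control regions, at 1.36-fold. Its log2 difference was -0.46 ± 0.25 (SE; 95% interval -1.01 to 0.08; adjusted p 0.464). Tpm2 read 31.7, 66.1 and 24.2 in control regions 1 to 3, against 18.5, 45.7 and 47.1 in floxed regions 1 to 3, so the groups overlapped almost fully. Its log2 difference was -0.11 ± 0.40 (SE; 95% interval -0.99 to 0.77; adjusted p 0.945), and it took the opposite sign without control region 2 or without floxed region 1.

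Actg2 and Myh11, the actin and the myosin heavy chain that are typical of differentiated smooth muscle, lay near background in part of the regions. Actg2, gamma smooth muscle actin, read 28.7, 27.9 and 17.0 in control regions 1 to 3, against 5.55, 13.1 and 26.9 in floxed regions 1 to 3. In floxed region 1 it lay 1.16 times above the negative probe and rested on 3 steps, so the size of its log2 difference, -0.86 ± 0.45 (SE; 95% interval -1.84 to 0.12; adjusted p 0.449), is uncertain. Without that region the difference was -0.33. Myh11 read 16.6, 29.0 and 8.74 in control regions 1 to 3, against 11.1, 15.2 and 15.7 in floxed regions 1 to 3. Relative to the negative probe of each region, Myh11 averaged 3.70 times in the control and 2.48 times in the floxed regions. The control values enclosed the floxed ones, and the log2 difference was -0.22 ± 0.39 (SE; 95% interval -1.07 to 0.64; adjusted p 0.864). Lmod1, a leiomodin that nucleates actin filaments in smooth muscle, read 8.02 ± 4.72 and 5.88 ± 2.69 (SD, n = 3 each), which is 1.65 and 1.01 times the negative probe, and Myocd, the SRF partner myocardin, lay 1.97 and 2.06 times above it. Both of these genes were picked after their values were seen.

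Des, the gene of the intermediate filament protein that was stained, read 24.9, 40.4 and 28.8 in control regions 1 to 3, against 22.2, 41.4 and 46.0 in floxed regions 1 to 3. Relative to the negative probe of each region, Des averaged 6.43 and 6.37 times, and the groups overlapped. The log2 difference was 0.18 ± 0.30 (SE; 95% interval -0.49 to 0.84; adjusted p 0.853).

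**Figure D2:**
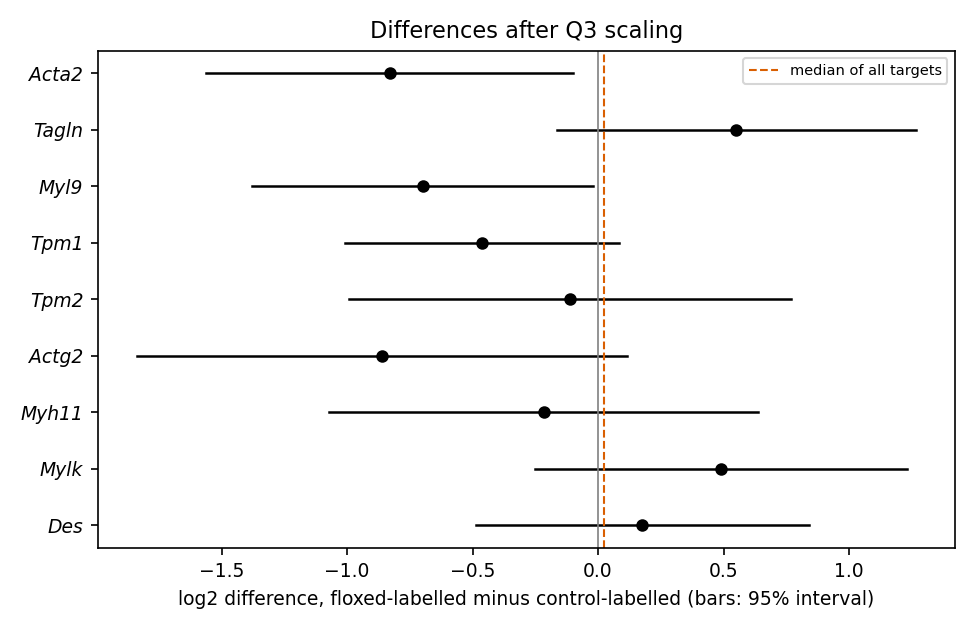
Log2 difference (horizontal axis, floxed minus control, Q3-scaled) of each contractile gene, with a bar for limma's 95% interval, n = 3 regions per group. The dashed line is the median of all targets at 0.02. The intervals of Acta2 and Myl9 end just below 0 and the other 7 include it.

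The regions of a group differed among themselves in these genes. Among the control regions, region 2 was the highest for 7 of the 9 genes, where it was the highest for 34.6% of all targets. Among the floxed regions, region 3 was the highest for 6 genes and region 1 the lowest for 6, beside 31.2% and 44.7% of all targets. The highest control region exceeded the lowest by 1.36-fold for Tpm1 to 3.32-fold for Myh11, with a median of 1.85-fold, against 1.38-fold for the median target. In the floxed regions the range ran from 1.41-fold for Myh11 to 4.85-fold for Actg2, with a median of 2.17-fold against 1.81-fold for the median target.

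Ratios of genes within a region do not depend on how regions are scaled, and Acta2 was taken as the reference. The ratio of Tagln to Acta2 was 0.424, 0.429 and 0.298 in control regions 1 to 3, against 0.701, 1.87 and 0.745 in floxed regions 1 to 3. Every floxed region lay above every control region, and floxed region 2 had the highest ratio. On the log2 scale the difference was 1.39, a 2.62-fold change of the ratio, with an exact two-sided permutation p of 0.1 and an adjusted p of 0.267 over 8 ratios. The smallest p that 3 against 3 regions allow is 0.1. The ratio of Mylk to Acta2 was 0.152, 0.157 and 0.280 in control regions 1 to 3, against 0.586, 0.444 and 0.407 in floxed regions 1 to 3, again with no overlap, a 2.51-fold difference (exact permutation p 0.1, adjusted 0.267). Des, whose protein defined the mask, is given as a description only, with ratios of 0.114, 0.0996 and 0.125 against 0.138, 0.422 and 0.201. Its exact permutation p was also 0.1 and is among the 8, which makes the adjusted p of Tagln and Mylk smaller than without Des.

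The Tagln and Mylk ratios have to be read against the background. The ratio to Acta2 separated the groups, with all floxed regions above all control regions, for 30.4% of all other targets, and the opposite way for 0.0452%, and the ratio of the median target to Acta2 differed by 0.86 on the log2 scale. Of all other targets, 15.1% had a larger difference than Tagln and 17.8% a larger one than Mylk. The remaining ratios overlapped, with log2 differences of 0.12 for Myl9, 0.37 for Tpm1, 0.72 for Tpm2, -0.10 for Actg2 and 0.61 for Myh11 and exact permutation p of 0.3 to 0.9. Without floxed region 2 the differences were 0.049 for Tpm1, 0.19 for Tpm2 and 0.22 for Myh11, and without floxed region 1 that of Tpm2 was 1.196. With the negative probe subtracted that of Actg2 was -1.14.

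**Figure D3:**
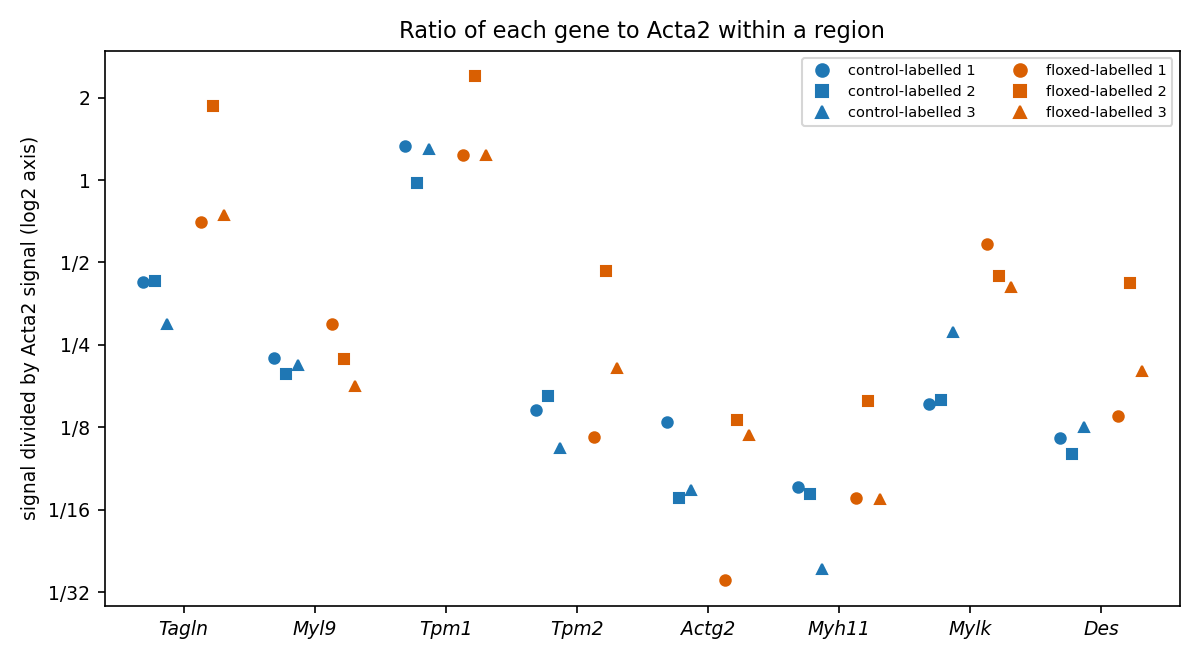
Signal of each contractile gene divided by that of Acta2 in the same region (log2 axis), with a point per region and 3 regions per group. For Tagln, Mylk and Des the floxed points lie above all control points. For Myl9 the points of both groups lie between 0.176 and 0.299.

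Other genes of the contractile machinery were taken from 5 lists, with 91 genes in the table. Of these 91, 0 were called higher and 0 lower (limma, smallest adjusted p 0.174), and 12 had an unadjusted p under 0.05, where 12.7% of all targets did. The groups did not overlap for 14 lower genes, 15.4%, and for 4 higher genes, 4.4%, beside 9.08% and 10.1% of all targets.

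Of 16 genes of the thin filament and of actin binding, 12 had a negative difference, beside 47.6% of all targets, and the median was -0.27. The median gene of this list read 17.4 times the negative probe, and that of the contractile genes 9.02 times. The lists below ran down to 3.72 times, for channels and receptors. In single regions the median target read 3.43 to 4.32 times the negative probe. The share over all targets thus rests on weaker signals than most of these lists have, and the part of signal level was not tested. Cytoplasmic gamma actin, Actg1, read 1294 ± 56.3 and 901 ± 208 (SD, n = 3 each), while cytoplasmic beta actin, Actb, read 964 ± 89.6 and 963 ± 178. Tagln2, the transgelin of non-muscle cells, read 493 ± 55.6 and 329 ± 42.5, a log2 difference of -0.58 ± 0.25 (SE, adjusted p 0.358), opposite in sign to Tagln. Cnn3, a calponin found outside smooth muscle, read 92.1 ± 11.5 and 63.3 ± 0.53, a difference of -0.53 ± 0.21 (SE, adjusted p 0.328).

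Of 17 myosin subunits and regulators of myosin, 11 had a negative difference, where 47.6% of all targets did, and the median was -0.09. Myl12b, a regulatory light chain of non-muscle myosin, read 316 ± 42.9 and 176 ± 69.5 (SD, n = 3 each), a log2 difference of -0.91 ± 0.29 (SE, adjusted p 0.228). Ppp1cb, the catalytic subunit of myosin phosphatase, read 124 ± 9.53 and 89.5 ± 8.27, and Ppp1r12c, a targeting subunit of that phosphatase, read 48.0 ± 3.11 and 69.8 ± 4.51, with no overlap in either case and opposite directions. Myl6, the essential light chain, read 437 ± 64.6 and 456 ± 89.2.

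Of 27 genes of adhesions, dense bodies and intermediate filaments, 20 had a negative difference and the median was -0.24. For this and the next lists, the share of all targets with a negative difference was 47.6%. Fhl1, a LIM-domain protein of muscle, read 45.1 ± 6.14 and 24.9 ± 5.73 (SD, n = 3 each), a log2 difference of -0.85 ± 0.25 (SE) with the smallest adjusted p of the related genes, 0.174. The actin crosslinker filamin A, Flna, read 220 ± 30.7 and 163 ± 28.1, and vimentin, Vim, 599 ± 110 and 518 ± 151. Of 20 genes of SRF and TGF-beta control, 13 had a negative difference and the median was -0.11. Srf, picked after its values were seen, read 43.7 ± 4.44 and 43.4 ± 2.64, a difference of -0.01 ± 0.22 (SE; 95% interval -0.47 to 0.46). The smallest p of this list belonged to Nkx3-2, which differed by 1.10 ± 0.36 (SE, limma adjusted p 0.237). Relative to the negative probe of each region, Nkx3-2 averaged 1.67 and 3.22 times. Mrtfa differed by -0.54 ± 0.28 (SE, limma adjusted p 0.440). Ccn2, a matricellular target of TGF-beta and of YAP, read 243 ± 40.5 and 142 ± 109 (SD, n = 3 each), with floxed region 3 at 268 among the control values. Of 11 smooth muscle channels and receptors, 5 had a negative difference and the median was 0.05. Among them, the endothelin receptor Ednrb read 25.7, 64.4 and 59.6 in control regions 1 to 3, against 75.9, 13.1 and 8.97 in floxed regions 1 to 3. Its log2 difference was -1.10 ± 0.61 (SE), with overlapping groups. The other genes that the rule named, Cacna1c, Itpr1 and Ednra, differed the opposite way, by 0.74, 0.29 and 0.05.

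**Figure D4:**
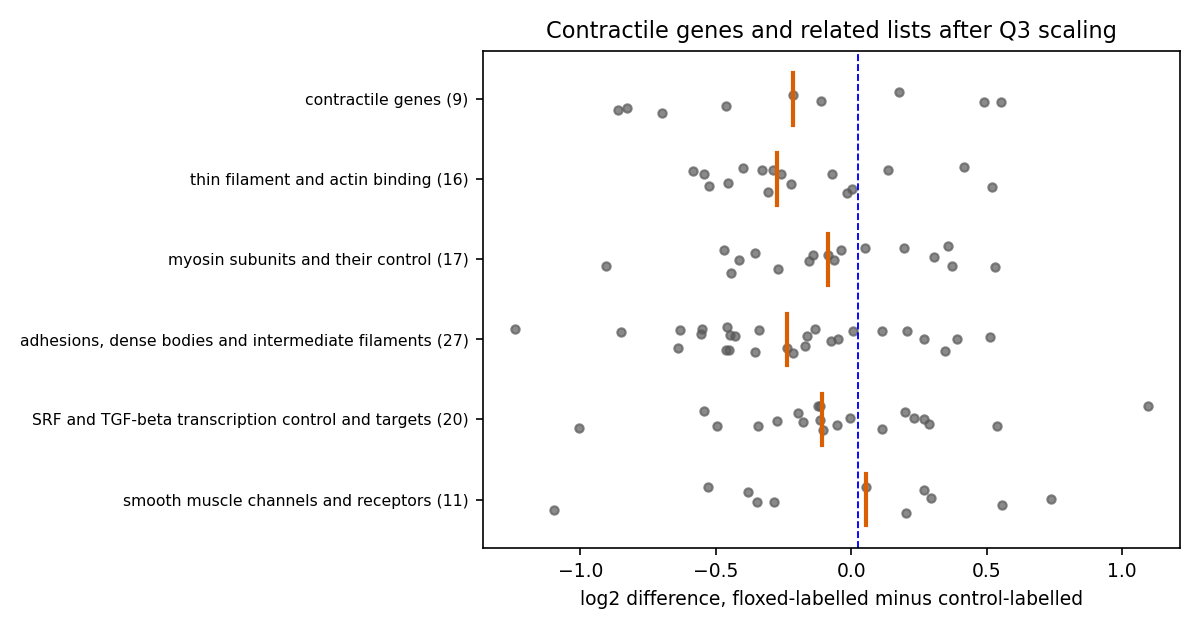
Log2 difference (horizontal axis, floxed minus control, Q3-scaled) of every gene in the contractile set and 5 related lists, with the number of genes in brackets. The orange bars are list medians, from -0.27 to 0.05, and the dashed line is the median of all targets at 0.02.

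The targets whose profile over the 6 regions was most like the average profile of the contractile genes were Nol7, Pdia5, Polb, Trip10 and Rras. Their root mean squared differences from it were 0.11 to 0.13 on the log2 scale, beside 0.47 for the median of 8822 eligible targets. Of the contractile genes, Tpm1 lay nearest to the average at 0.19 and Mylk farthest at 0.61. Each of them is part of that average, which brings it nearer, while the other targets are not. The targets most like Acta2 alone were Heg1, Efna1 and Nmt2, at 0.15 to 0.21, and the median target lay at 0.67. Nearer to Acta2 than that lay Myl9 at 0.23, Tpm1 at 0.39, Myh11 at 0.57 and Actg2 at 0.64. Farther than the median target lay Des at 0.69, Tpm2 at 0.70, Mylk at 0.73 and Tagln at 0.84. Heg1 read 95.9, 137 and 85.3 in control regions 1 to 3, against 70.3, 43.5 and 88.6 in floxed regions 1 to 3.

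Markers of other cells that the mask could hold were summed in each region. Between the groups the sums did not overlap for fibroblast, pericyte, epithelial, leukocyte and skeletal or cardiac muscle markers, and they overlapped for stellate, mesothelial, hepatocyte and endothelial markers. For single targets the groups did not overlap for 10.1% higher and 9.08% lower, and no such share was computed for sums. Of all targets, 0.588% were called higher, 0.113% were called lower and 47.6% had a negative difference. Fibroblast markers summed to 7120 to 9726 in the control and 4072 to 5775 in the floxed regions, and 1 of 14 was called higher, Pdpn (podoplanin), and 0 lower. Of the 14, 10 had a negative difference, with a median of -0.22. Collagens carried most of the sum: in control region 2, Col1a1, Col3a1 and Col1a2 read 3738, 2616 and 1197 of the 9726. Col1a1 read 2982 ± 666 and 1729 ± 467 (SD, n = 3 each), a log2 difference of -0.80 ± 0.37 (SE, adjusted p 0.399), close in size to that of Acta2. Pericyte markers summed to 375 to 460 and 296 to 354, with 0 of 11 called, 7 with a negative difference and a median of -0.17. The smallest p belonged to Mcam and Rgs5, which differed by -1.13 ± 0.34 and -0.86 ± 0.36 (SE, adjusted p 0.191 and 0.356), while Pdgfrb differed by -0.04. Hepatic stellate cell markers overlapped between the groups at 396 to 509 and 318 to 572, with 0 of 12 called, 5 with a negative difference and a median of 0.02.

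Tumour epithelial and cholangiocyte markers summed to 3839 to 6610 and 1611 to 3580, with 0 of 12 called, 8 with a negative difference and a median of -0.65. Of the 6610 in control region 1, Spp1 alone made up 3794. Floxed region 2, the lowest for Acta2 and Myl9, had the lowest sum here and for fibroblast, stellate, hepatocyte and mesothelial markers. It had the highest leukocyte and skeletal or cardiac muscle sums. Leukocyte markers summed to 269 to 409 and 552 to 671, with 2 of 13 called higher, Lyz2 and Cd52, where 0.588% of all targets were called higher. Of the 13, 1 had a negative difference, and the median of 0.85 was the highest of the cell type lists. For 6 of the 13 the floxed regions lay wholly above the control ones, beside 10.1% of all targets. Hepatocyte markers summed to 5802 to 7449 and 4059 to 11812, with 1 of 14 called higher, Fabp1. Of the 14 hepatocyte markers, 3 had a negative difference, with a median of 0.60. Endothelial markers summed to 242 to 674 and 261 to 663 and mesothelial markers to 612 to 894 and 438 to 739, with 0 of 11 and 0 of 6 called. Negative differences were found for 8 of the 11 and 4 of the 6, with medians of -0.38 and -0.43. Krt19 stands in both the mesothelial and the epithelial list. Control region 2, the highest for most contractile genes, had the highest pericyte, fibroblast and endothelial sums. Of 14 skeletal or cardiac muscle markers 3 were in the table, with 0 called and sums of 17.5 to 22.7 and 31.5 to 47.9. Of the 3, 1 had a negative difference, with a median of 0.70, and 2 lay below 2 times the negative probe. The part of these other cells in the levels of the contractile genes was not tested.

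**Figure D5:**
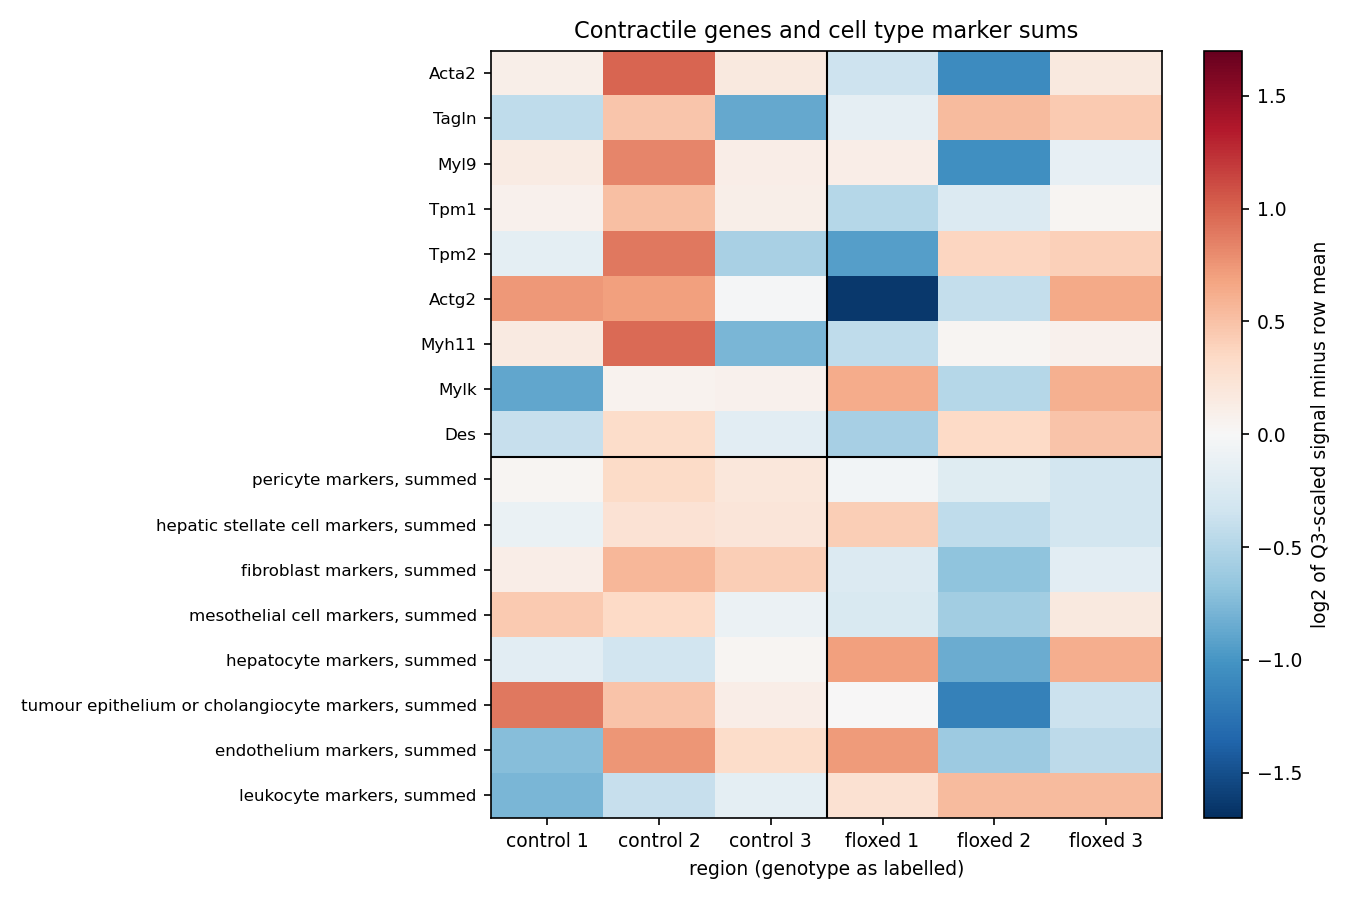
Log2 of the Q3-scaled signal minus the row mean (colour) for 9 contractile genes and the summed markers of 8 cell types in the 6 regions. Control region 2 reaches 0.99 for Acta2 and 0.57 for the fibroblast sum, and floxed region 2 reaches -1.06 for Acta2 and 0.54 for Tagln.

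On the deposited scale, without Q3 scaling, the median target differed by -1.22 and the contractile genes by -1.44 in the median. There 7 of the 9 were called lower (limma, adjusted p under 0.05), where 74.7% of all targets were, and 0 were called higher, where 0.158% were. Tagln and Mylk were the 2 genes without a call, at -0.75 ± 0.50 and -0.80 ± 0.47 (SE) with adjusted p of 0.154 and 0.102. Relative to the shift shared by all targets, Acta2 at -2.14 ± 0.52 lay below it and Tagln and Mylk above it, an order that the scaling of whole regions leaves nearly unchanged by construction.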

How the data were processed

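The deposited table holds a signal value per target and region, with the genotype in its second line. Tags of the GeoMx mouse whole transcriptome assay were amplified and sequenced, per the labels' protocols. How the authors counted tags, and what scaling preceded the deposited signal values, was not given in the sources used here. Within 0.01 step, 99.98% of values were whole multiples of a step per region. Whole reads could not be established for every region, so no count model was used.

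Each column was scaled to the geometric mean of the 6 upper quartiles. Single targets were fitted in R 4.3.3 by limma 3.58.1 (lmFit, then eBayes with trend) on log2(value + 1) of the deposited values so scaled, 3 against 3 regions, with 13264 targets and calls at an adjusted p under 0.05. No filter was applied. Ratios were tested with an exact permutation test (scipy 1.17.1). On simulated data with 200 changed genes among 13264 targets, this comparison recovered 23% of log2 changes of 1 and 77% of changes of 2. The columns left out numbered 0.

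The genes, lists and motifs were chosen with earlier results of these data known. Named were the contractile genes, up to 3 genes per list by p and by mean, Cd274, Col1a1, Ptprc, and the nearest profiles among targets above 3 times the negative probe. Of these, not every gene is printed. Outside this rule, Lmod1, Myocd, Srf and Agtr1a were chosen after their values were seen. Alternatives were other scalings, variance models, region weights, pseudocounts of 0.5 and 5, a filter on low targets, negative-probe subtraction, and fits that each lacked a region.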

Additional observations from a re-analysis of the deposited data

How the results depend on the processing

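Across 17 alternatives, 153 differences of single contractile genes were recomputed: 138 kept their sign and stayed without a call, and 9 changed sign. On the deposited scale 7 became called, Des with a change of sign among them, and 0 did so elsewhere. On the deposited scale the count of lower contractile genes was 7, their median difference -1.44 and the count of lower related genes 78, and Tagln, Mylk and Des changed sign to -0.75, -0.80 and -1.10. There the median of all targets was -1.22. Des also turned to -0.024 with negative-probe scaling and ran from -0.018, without floxed region 3, to 0.49. Tpm2 turned to 0.070 with region weights, to 0.30 without control region 2 and to 0.32 without floxed region 1, its lowest such value being -0.41, and Myh11 ran from -0.63 to 0.18, the latter without control region 2. When each region was left out, the count of contractile genes called in either direction was 0 each time, their median difference ran from -0.53 to 0.18, and the count of lower related genes ran from 0 to 4. The 4 were Myl12b, Fhl1, Cryab and Ednrb, without floxed region 1, where the lower calls among all targets numbered 487. With region weights 5 related genes were lower, these and Agtr1a, beside 330 of all targets. Without a mean-variance trend limma called 0 of all targets, with 1577 at an unadjusted p under 0.05.

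The log2 ratio differences to Acta2 ran over 9 alternatives from 0.93 to 1.64 for Tagln, from 1.18 to 1.62 for Mylk and from 0.57 to 1.37 for Des. Actg2 moved to -1.14 with the negative probe subtracted, turned to 0.14 with a pseudocount of 5, and ran from -0.45 to 0.52 with a region left out. Myl9 turned to -0.021 with the negative probe subtracted, and ran from -0.081 to 0.30 with a region left out. The cause of these changes was not tested.

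No paired analysis was possible because the labels give no replicate number shared by the groups. Low tag numbers limit Actg2 and Myh11 most, with lowest values of 3 and 6 steps. The lowest values of Myl9, Tpm2 and Des rested on 10, 10 and 12 steps, all in floxed regions. The 3 regions per group limit every gene.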
